A study of Danio rerio with 6 samples.

Results

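The genes described are 6 dlx genes of zebrafish (dlx1a, dlx2a, dlx3b, dlx4b, dlx5a and dlx6a) and hand2, chosen by their Ensembl identifiers as transcription factor genes of the pharyngeal arches, 7 of the 32057 genes in the expression table. Their identifiers are ENSDARG00000013125 (dlx1a), ENSDARG00000079964 (dlx2a), ENSDARG00000014626 (dlx3b), ENSDARG00000071560 (dlx4b), ENSDARG00000042296 (dlx5a), ENSDARG00000042291 (dlx6a) and ENSDARG00000008305 (hand2). The study sorted neural crest (NC) cells at 24 hpf from embryos that carry the Wnt reporter Tg(7XTCF:nls-mCherry)ia5 together with the NC reporter Tg(-7.2sox10:EGFP)ir937, and made bulk RNA-seq libraries with Smart-seq2, a method for amplifying full-length cDNA when RNA is scarce. The high-Wnt population (EGFP positive, mCherry positive, 3 libraries) was compared with the low-Wnt population (EGFP positive, mCherry negative, 3 libraries). Both carry both transgenes, at the same stage and with no treatment, so the sort is the only difference that the labels give. The mCherry reporter is driven by TCF binding sites and reads canonical Wnt responses, while EGFP is driven by a fragment of the sox10 promoter, which is active in NC and also in the otic vesicle. The labels call the cells NC cells and do not restrict them to the arches, so a value below is a mean over all EGFP-positive cells of a population. How many embryos went into a library, and whether equally numbered libraries share embryos, is not stated, so p-values measure only the spread between these libraries.

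Dlx genes encode homeodomain transcription factors that occur as adjacent pairs in vertebrate genomes. In the arches, NC-derived cells express them in nested domains. dlx1a and dlx2a mark the dorsal and the ventral arch, dlx5a and dlx6a the lower arch, and dlx3b and dlx4b a narrower domain within it. Endothelin 1, a secreted signal of the ventral arch, induces the lower members and hand2, which encodes a basic helix-loop-helix factor of the ventral arch needed for the lower jaw. The same genes are used elsewhere in the embryo at this stage, dlx1a, dlx2a, dlx5a and dlx6a in the forebrain, dlx3b and dlx4b in the otic and olfactory placodes and epidermis, and hand2 in the heart and lateral plate. In the RefSeq table used here (GRCz12tu) no annotated gene lies wholly between dlx1a and dlx2a, between dlx3b and dlx4b, or between dlx5a and dlx6a. The gene trioa overlaps both dlx5a and dlx6a there. The gene name table lists the 7 identifiers as DLX1, DLX2, DLX3, dlx4b, DLX5, DLX6 and HAND2.

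The deposited values are TPM, transcript abundances corrected for transcript length and scaled to a fixed total in each library, so levels of different genes can be compared but sequencing depth is not kept. One library stood apart. Genes at 1 TPM or more numbered 14283 to 14417 in each high-Wnt library. The low-Wnt libraries had 13791, 13481 and 9230 such genes for replicates 1, 2 and 3, and replicate 3 ranked last of the 6 libraries for 70.2% of the 14163 genes tested. The tests of the 7 genes and the counts of calls are therefore given with all 6 libraries and without this one. NC markers were present in every library. The 7 genes matched to 6 NC markers (sox10, crestin, foxd3, tfap2a, sox9b and snai1b) summed to 667 to 793 TPM in high-Wnt libraries, to 508 and 521 TPM in low-Wnt replicates 1 and 2, and to 144 TPM in low-Wnt replicate 3.

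All 7 genes passed the filter on low values, with at least 6.61 TPM in every library. dlx2a was the most abundant, with 209 ± 33.2 TPM in high-Wnt and 129 ± 64.4 TPM in low-Wnt cells (SD, n = 3 each, also below). dlx5a came second, with 74.7 ± 4.08 TPM in high-Wnt and 85.5 ± 10.3 TPM in low-Wnt cells. dlx4b averaged 53.5 ± 6.17 TPM in high-Wnt and 52.7 ± 28.4 TPM in low-Wnt cells, and dlx3b 48.6 ± 1.40 TPM and 26.3 ± 8.18 TPM in the same order of populations. hand2 averaged 40.6 ± 8.41 TPM in high-Wnt and 28.5 ± 13.2 TPM in low-Wnt cells, dlx1a 39.7 ± 6.75 TPM in high-Wnt and 23.9 ± 9.67 TPM in low-Wnt cells, and dlx6a, the least abundant, 12.9 ± 2.13 TPM in high-Wnt and 10.7 ± 3.57 TPM in low-Wnt cells. dlx2a exceeded dlx5a in 5 of 6 libraries, the exception being low-Wnt replicate 3, and dlx5a exceeded dlx4b in 6 of 6. From dlx4b to dlx3b, hand2 and dlx1a, each gene exceeded the next in 5 of 6 libraries. Within high-Wnt cells the ranges of neighbours in this run of 4 genes overlapped, so their order lies within the spread. dlx1a exceeded dlx6a in 6 of 6 libraries.

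dlx1a and dlx2a, the pair with the broadest arch domain, had higher means in high-Wnt cells, but neither passed the test. dlx1a had 46.8, 33.4 and 39.0 TPM in high-Wnt replicates 1, 2 and 3, against 24.4, 33.4 and 14.0 TPM in low-Wnt replicates 1, 2 and 3. High-Wnt replicate 2 and low-Wnt replicate 2 were separated by 0.02 TPM, so the populations were apart by almost nothing. For dlx1a, the log2 fold change was 0.78 (95% interval -0.18 to 1.74, limma adjusted p = 0.439), and 0.45 (95% interval -0.02 to 0.92, limma adjusted p = 0.171) without low-Wnt replicate 3. dlx2a, the gene used in the field to mark skeletogenic NC, had 171, 232 and 224 TPM in high-Wnt replicates 1, 2 and 3, against 175, 158 and 55.8 TPM in low-Wnt replicates 1, 2 and 3. High-Wnt replicate 1 lay below low-Wnt replicate 1, and low-Wnt replicate 3 lay far below the other 5. The log2 fold change of dlx2a was 0.83 (95% interval -0.19 to 1.86, limma adjusted p = 0.436), and 0.32 (95% interval -0.05 to 0.69, limma adjusted p = 0.220) without low-Wnt replicate 3. In a bulk library, a lower TPM from fewer cells of a type and from less RNA per cell cannot be told apart.

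dlx3b gave the clearest separation of the populations. It had 48.6, 50.0 and 47.2 TPM in high-Wnt replicates 1, 2 and 3, against 29.5, 32.5 and 17.1 TPM in low-Wnt replicates 1, 2 and 3. Every high-Wnt library was at least 14.8 TPM above every low-Wnt library, and the high-Wnt values were the tightest of all 7 genes. With 6 libraries its log2 fold change was 0.91 (95% interval 0.06 to 1.76), with a limma adjusted p of 0.327, so it did not pass. Without low-Wnt replicate 3 it was 0.63 (95% interval 0.31 to 0.95), a 1.57-fold higher mean TPM in high-Wnt cells, with a limma adjusted p of 0.026, which passed. dlx4b, its neighbour, had 46.4, 57.1 and 57.1 TPM in high-Wnt replicates 1, 2 and 3, against 38.2, 34.6 and 85.4 TPM in low-Wnt replicates 1, 2 and 3. Low-Wnt replicates 1 and 2 were the lowest of the 6 libraries and low-Wnt replicate 3 was the highest. For dlx4b, the log2 fold change was 0.14 (95% interval -0.81 to 1.09, limma adjusted p = 0.866) with 6 libraries and 0.54 (95% interval 0.18 to 0.90, limma adjusted p = 0.058) without low-Wnt replicate 3. The direction of dlx4b with 6 libraries flipped under median centring, to -0.46.

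dlx5a and dlx6a, the lower arch pair, did not separate the populations. dlx5a had 71.5, 79.3 and 73.3 TPM in high-Wnt replicates 1, 2 and 3, against 73.8, 93.3 and 89.5 TPM in low-Wnt replicates 1, 2 and 3. It was the one gene of the 7 with the lower mean in high-Wnt cells, although low-Wnt replicate 1 lay between high-Wnt replicates 3 and 2. For dlx5a, the log2 fold change was -0.19 (95% interval -0.83 to 0.46, limma adjusted p = 0.731), and -0.15 (95% interval -0.49 to 0.19, limma adjusted p = 0.521) without low-Wnt replicate 3. dlx6a had 15.4, 11.6 and 11.9 TPM in high-Wnt replicates 1, 2 and 3, against 6.61, 12.5 and 13.1 TPM in low-Wnt replicates 1, 2 and 3. The lowest value was in low-Wnt replicate 1 and the highest in high-Wnt replicate 1, with the other 4 libraries together. The log2 fold change of dlx6a was 0.29 (95% interval -0.74 to 1.33, limma adjusted p = 0.737), and 0.45 (95% interval -0.20 to 1.098, limma adjusted p = 0.311) without low-Wnt replicate 3. The sign of dlx6a flipped under quantile normalization and median centring of the 6 libraries. In the RefSeq table trioa overlaps both genes, a lncRNA overlaps dlx1a and cep44 overlaps hand2. These overlaps are of whole gene spans, and exons were not compared. The quantification is not stated to use strand, so reads from any shared stretch may not be told apart.

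hand2 had 32.7, 49.5 and 39.7 TPM in high-Wnt replicates 1, 2 and 3, against 29.5, 41.2 and 14.9 TPM in low-Wnt replicates 1, 2 and 3. The populations overlapped, with low-Wnt replicate 2 above 2 of the high-Wnt libraries. With 6 libraries the log2 fold change of hand2 was 0.59 (95% interval -0.44 to 1.62, limma adjusted p = 0.546), and 0.20 (95% interval -0.31 to 0.70, limma adjusted p = 0.577) without low-Wnt replicate 3. Under median centring of the 6 libraries it was -0.0073.

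**Figure D1:**
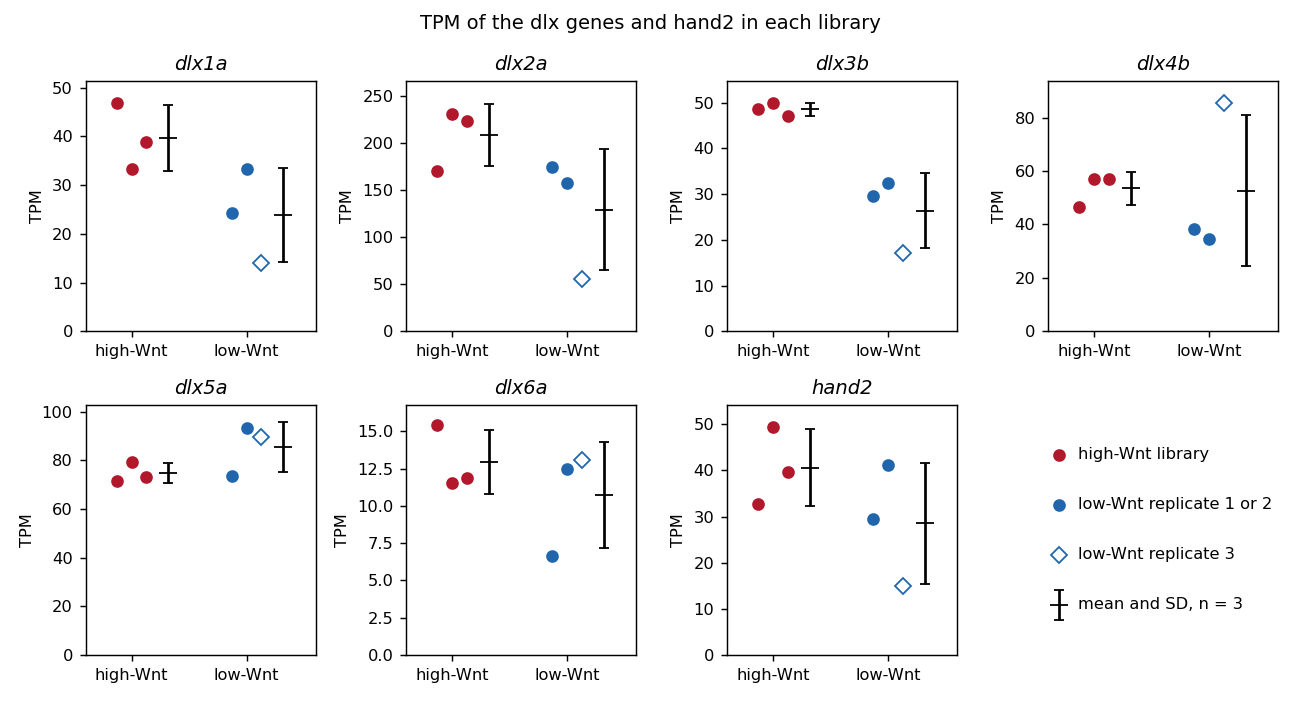
TPM (vertical axes, each from 0) of the 6 dlx genes and hand2 in the 3 high-Wnt libraries (red) and the 3 low-Wnt libraries (blue, replicate 3 as an open diamond), with the mean and SD of each population beside the points. dlx3b separated the populations by 14.8 TPM, while dlx4b in low-Wnt replicate 3 (85.4 TPM) lay above the other 5 libraries.

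Counted together, 0 of the 7 genes were called (adjusted p under 0.05) with 6 libraries, where 0.367% of the 14163 tested genes were called by limma. At an unadjusted p under 0.05 the count was 1 of 7 (dlx3b), against 14.2% of tested genes. Without low-Wnt replicate 3, 1 of 7 was called, dlx3b, higher in high-Wnt cells, which is 14.3% of the genes and near the 12.7% called among the 15000 genes tested (7.17% higher and 5.57% lower). An unadjusted p under 0.05 was reached there by 2 of 7 (dlx3b and dlx4b), against 31.3% of tested genes. The populations did not overlap, with high-Wnt above, for 2 of 7 (dlx1a and dlx3b) with 6 libraries, against 22.4% of tested genes, and for 3 of 7 (dlx1a, dlx3b and dlx4b) without low-Wnt replicate 3, against 25.1%. The median log2 fold change of the 7 genes was 0.59 with 6 libraries, beside 0.51 for all tested genes, and 0.45 without low-Wnt replicate 3, beside 0.05. Relative to the median of all tested genes, 4 of the 7 lay above it with 6 libraries and 6 of 7 without low-Wnt replicate 3, dlx5a being the exception in the second fit. Scaling moved these medians with 6 libraries, to 0.26 for the 7 genes beside 0.07 for all tested genes under quantile normalization, and to -0.0073 beside -0.08 under median centring. The place of a gene in the order of all TPM values of its library does not depend on scaling between libraries. It still shifts with the levels of the other genes, and low-Wnt replicate 3 had only 9230 genes at 1 TPM or more. There dlx3b took a higher place at 17.1 TPM (2722nd) than in low-Wnt replicate 2 at 32.5 TPM (3188th). By that place, the populations did not overlap, with high-Wnt above, for dlx2a and dlx3b, 2 of 7 genes, against 14.7% of tested genes. With high-Wnt below, 0 of the 7 were apart, against 12.4% of tested genes. Without low-Wnt replicate 3, dlx1a, dlx2a, dlx3b and dlx4b, 4 of 7, had a higher place in every high-Wnt library, against 23.6% of tested genes. dlx2a was 708th, 549th and 549th in high-Wnt replicates 1, 2 and 3, against 739th, 822nd and 1399th in low-Wnt replicates 1, 2 and 3. dlx3b was 2240th, 2261st and 2261st in high-Wnt replicates 1, 2 and 3, against 3480th, 3188th and 2722nd in low-Wnt replicates 1, 2 and 3.

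**Figure D2:**
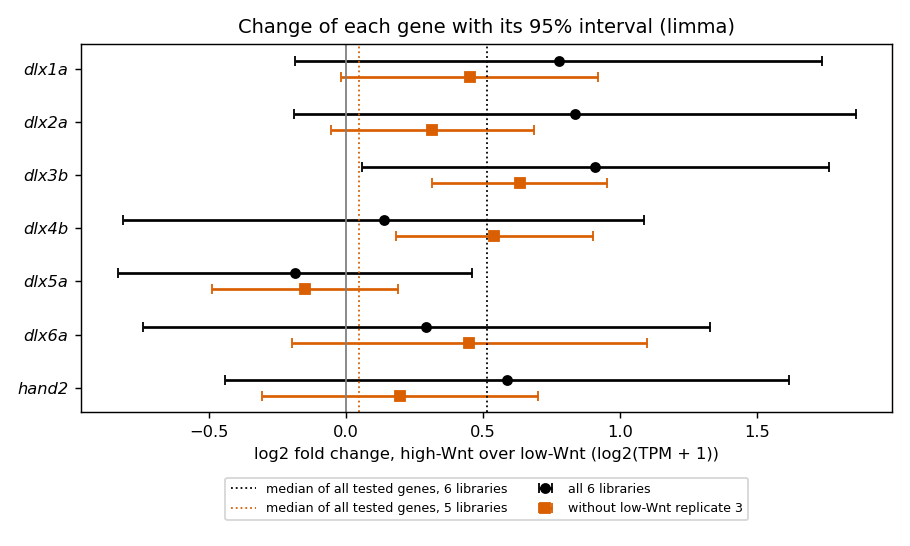
The log2 fold change (horizontal axis, high-Wnt over low-Wnt on the log2(TPM + 1) scale) of each gene, with its 95% interval from limma, with all 6 libraries (black) and without low-Wnt replicate 3 (orange); dotted lines give the median of all tested genes, 0.51 and 0.05. With 6 libraries only the interval of dlx3b lay above 0, and without low-Wnt replicate 3 those of dlx3b and dlx4b did.

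A ratio of TPM between 2 genes within a library does not depend on scaling between libraries either, but adding 1 TPM makes this only approximate. Ratios between these genes, with 1 TPM added to each value, were compared for 5 pairs by two-sided exact permutation tests. With 3 libraries a population these tests cannot give a p under 0.1. dlx5a was 4.64, 6.85 and 6.17 times as abundant as dlx6a in high-Wnt replicates 1, 2 and 3, against 11.2, 7.47 and 6.85 times in low-Wnt replicates 1, 2 and 3. On the log2 scale the ratio differed by -0.48 (exact permutation p = 0.1, Benjamini-Hochberg adjusted over the 5 pairs 0.25), and the difference was -0.60 without low-Wnt replicate 3. The populations were apart with 1 TPM added to each value, but the TPM ratios themselves overlapped by a small margin, at high-Wnt replicate 2 and low-Wnt replicate 3, and with a pseudocount of 0.1 the exact permutation p was 0.2. The log2 ratio of dlx5a to dlx2a was -1.24, -1.54 and -1.60 in high-Wnt replicates 1, 2 and 3, against -1.23, -0.75 and 0.67 in low-Wnt replicates 1, 2 and 3. The mean difference was -1.02 (exact permutation p = 0.1, adjusted 0.25) and -0.47 without low-Wnt replicate 3. The populations were apart for this ratio too, but high-Wnt replicate 1 and low-Wnt replicate 1 were nearly equal.

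For the other pairs the populations overlapped. The log2 ratio of dlx1a to dlx2a was -1.84, -2.76 and -2.49 in high-Wnt replicates 1, 2 and 3, against -2.79, -2.21 and -1.92 in low-Wnt replicates 1, 2 and 3, a difference of -0.06 (exact permutation p = 1.0). The ratio of these neighbours varied far more within each population than between them. The log2 ratio of dlx3b to dlx4b was 0.07, -0.19 and -0.27 in high-Wnt replicates 1, 2 and 3, against -0.36, -0.09 and -2.26 in low-Wnt replicates 1, 2 and 3. The pair was near parity in 5 libraries, and the difference of 0.77 (exact permutation p = 0.4) was 0.09 without low-Wnt replicate 3. The log2 ratio of hand2 to dlx2a was -2.35, -2.21 and -2.47 in high-Wnt replicates 1, 2 and 3, against -2.53, -1.91 and -1.84 in low-Wnt replicates 1, 2 and 3, a difference of -0.25 (exact permutation p = 0.4), and -0.12 without low-Wnt replicate 3.

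**Figure D3:**
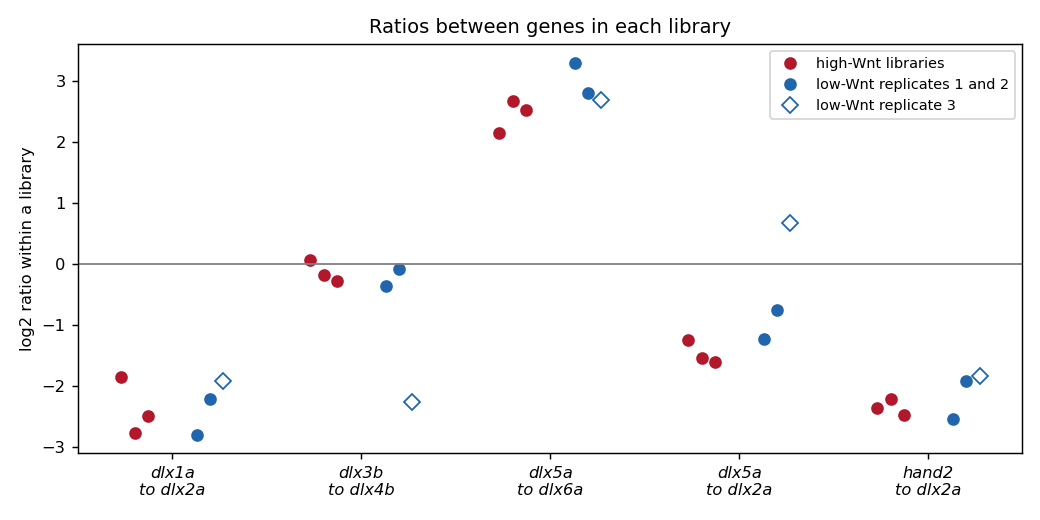
The log2 ratio of TPM + 1 between pairs of the genes (vertical axis) in each library, with high-Wnt libraries in red and low-Wnt libraries in blue (replicate 3 as an open diamond). In low-Wnt replicate 3 dlx3b was at -2.26 against dlx4b and dlx5a at 0.67 against dlx2a, away from the other 5 libraries in both.

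The 7 genes were split in how they followed the general shift of low-Wnt replicate 3. Against the mean of low-Wnt replicates 1 and 2, the median log2 ratio (with 1 TPM added) in this library was -1.36 over the 6270 tested genes with a mean of at least 10 TPM, with 24.6% of them above the mean of the other low-Wnt libraries. dlx2a (-1.56), hand2 (-1.19), dlx1a (-0.99) and dlx3b (-0.83) were lower there, within the middle of that range (quartiles -2.49 and -0.02). dlx5a (0.10), dlx6a (0.42) and dlx4b (1.21) were not lower, and 99.2% of these genes had a smaller ratio than dlx4b. dlx4b and dlx5a together made up 27.3%, 26.6% and 26.5% of the summed TPM of the 7 genes in high-Wnt replicates 1, 2 and 3, against 29.7%, 31.5% and 60.4% in low-Wnt replicates 1, 2 and 3. The sum itself was 432, 512 and 492 TPM in high-Wnt replicates 1, 2 and 3, against 377, 405 and 289.7 TPM in low-Wnt replicates 1, 2 and 3.

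**Figure D4:**
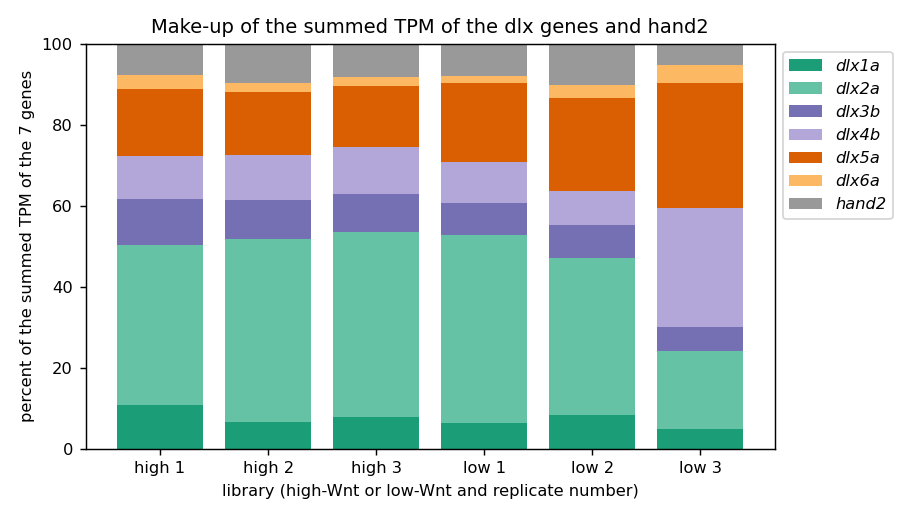
The share of each gene in the summed TPM of the 7 genes (vertical axis, percent) for each library (horizontal axis). In low-Wnt replicate 3 dlx4b and dlx5a made up 60.4% of the sum, against 26.5% to 31.5% in the other 5 libraries.

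Likeness of profiles was measured by the root mean square difference of log2(TPM + 1), each gene centred on its own mean, over all tested genes. With 6 libraries the genes closest to dlx2a outside this group were RSBN1 (0.0585) and OTUD5 (0.0622), and those closest to hand2 were TMEM198 (0.0735) and APEX2 (0.0894). Among 14162 genes ranked by closeness to dlx2a, hand2 was 1044th (0.26), dlx3b 1573rd (0.29) and dlx1a 3317th (0.38), while dlx5a, dlx6a and dlx4b were 11272nd, 11768th and 13083rd. Over the 5 libraries without low-Wnt replicate 3 the order changed. dlx4b was then 259th (0.12) and the closest of these genes to dlx2a. hand2 was 1946th, dlx3b 2357th, dlx5a 4302nd, dlx1a 6338th and dlx6a 8454th. The genes closest to dlx2a were ATP6V1D (0.0342) and UTP23 (0.0384). For hand2 over the 5 libraries, the closest were mybl2a (0.0396) and si:ch211-264f5.6 (0.0495), and the nearest of the dlx genes were dlx2a (1172nd) and dlx5a (1242nd). The points are libraries that share the shift of low-Wnt replicate 3 and the values carry no test.

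The other dlx genes in the table were weakly expressed. dlx4a, a further member of the family, had 6.18, 9.37 and 9.81 TPM in high-Wnt replicates 1, 2 and 3, against 0.45, 2.59 and 6.79 TPM in low-Wnt replicates 1, 2 and 3, so low-Wnt replicate 3 reached the high-Wnt range. Its log2 fold change was 1.44 (limma adjusted p = 0.373) with 6 libraries and 2.03 (limma adjusted p = 0.020) without low-Wnt replicate 3. The gene listed as DLX2 that is not dlx2a had 1.63, 0.73 and 1.07 TPM in high-Wnt replicates 1, 2 and 3, against 2.38, 2.69 and 1.01 TPM in low-Wnt replicates 1, 2 and 3. This gene had a log2 fold change of -0.47 (limma adjusted p = 0.562) with 6 libraries and -0.74 (limma adjusted p = 0.146) without low-Wnt replicate 3.

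A list of 40 further genes of arch patterning and skeletogenic NC was matched for 39 of them to 44 identifiers, since some symbols stand for both copies of a duplicated gene. With 6 libraries 42 were tested and 0 were called by limma. An unadjusted p under 0.05 was reached by 9 of 42, against 14.2% of all tested genes. Without low-Wnt replicate 3, 10 of 42 rose (23.8%, against 7.17% of all tested genes) and 2 of 42 fell (4.76%, against 5.57%), and the median log2 fold change of the list was 0.39, beside 0.05 for all tested genes. The counts rest on leaving out that library. Of the ligand and receptor genes upstream of dlx5a, dlx6a and hand2, edn1, which encodes Endothelin 1, fell in that fit. It had 3.60, 4.81 and 6.98 TPM in high-Wnt replicates 1, 2 and 3, against 16.6, 15.2 and 16.8 TPM in low-Wnt replicates 1, 2 and 3, so that low-Wnt replicate 3 stood with the other low-Wnt libraries. For edn1, the log2 fold change was -1.50 (limma adjusted p = 0.014) without low-Wnt replicate 3 and -1.52 (limma adjusted p = 0.175) with 6 libraries. The Endothelin receptor genes listed as ednrab and EDNRA did not pass in either fit, with log2 fold changes of -0.24 and 0.39 without low-Wnt replicate 3. ednrab averaged 569 TPM in high-Wnt libraries and, without replicate 3, 672 TPM in low-Wnt libraries.

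Of the genes that mark the dorsal arch, some rose in the fit without low-Wnt replicate 3. HEY1, a target of Notch signaling, had 32.1, 32.8 and 32.9 TPM in high-Wnt replicates 1, 2 and 3, against 12.0, 10.2 and 5.12 TPM in low-Wnt replicates 1, 2 and 3. HEY1 had a log2 fold change of 1.48 (limma adjusted p = 0.0025) without low-Wnt replicate 3 and 1.80 (limma adjusted p = 0.120) with 6 libraries. pou3f3b, which marks the dorsal arch, rose by 1.56, and 1 of the 2 genes listed as NR2F1, a nuclear receptor of the upper jaw, by 0.90, while jag1b, the Notch ligand of the dorsal arch, had a log2 fold change of 0.06 that did not pass. BARX1, a homeobox gene of arch cartilage condensations, rose by 0.67 (limma adjusted p = 0.047). Among broad skeletogenic genes, twist1b rose by 1.41 and twist1a by 0.89. For each of PRRX1 (1.23), SOX9 (1.02) and COL2A1 (1.32), 1 of the 2 listed genes rose past the threshold. The other PRRX1, SOX9 and COL2A1 genes had log2 fold changes of -0.12, 1.46 and 0.29. That SOX9 gene changed more than the one that passed, but its limma adjusted p was 0.071. However, twist1a in low-Wnt replicate 3 (336 TPM) lay within its high-Wnt range of 289 to 396 TPM. With 6 libraries the log2 fold change was 0.61 for twist1a (limma adjusted p = 0.410) and 1.34 for twist1b (limma adjusted p = 0.178). For the PRRX1, SOX9 and COL2A1 genes that passed without low-Wnt replicate 3, the limma adjusted p with 6 libraries was 0.212, 0.179 and 0.223. It was 0.148 for pou3f3b, 0.340 for the NR2F1 gene that rose and 0.415 for BARX1. foxf2a, a forkhead gene of the arches, fell by 0.87 without low-Wnt replicate 3 (log2 fold change -0.87, limma adjusted p = 0.047). With 6 libraries the log2 fold change of foxf2a was -0.11 (limma adjusted p = 0.934). The homeobox genes msx1a, msx1b and msx2b, used in the ventral arch with hand2, did not pass. Their log2 fold changes without low-Wnt replicate 3 were -0.21, -0.07 and 0.25.

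**Figure D5:**
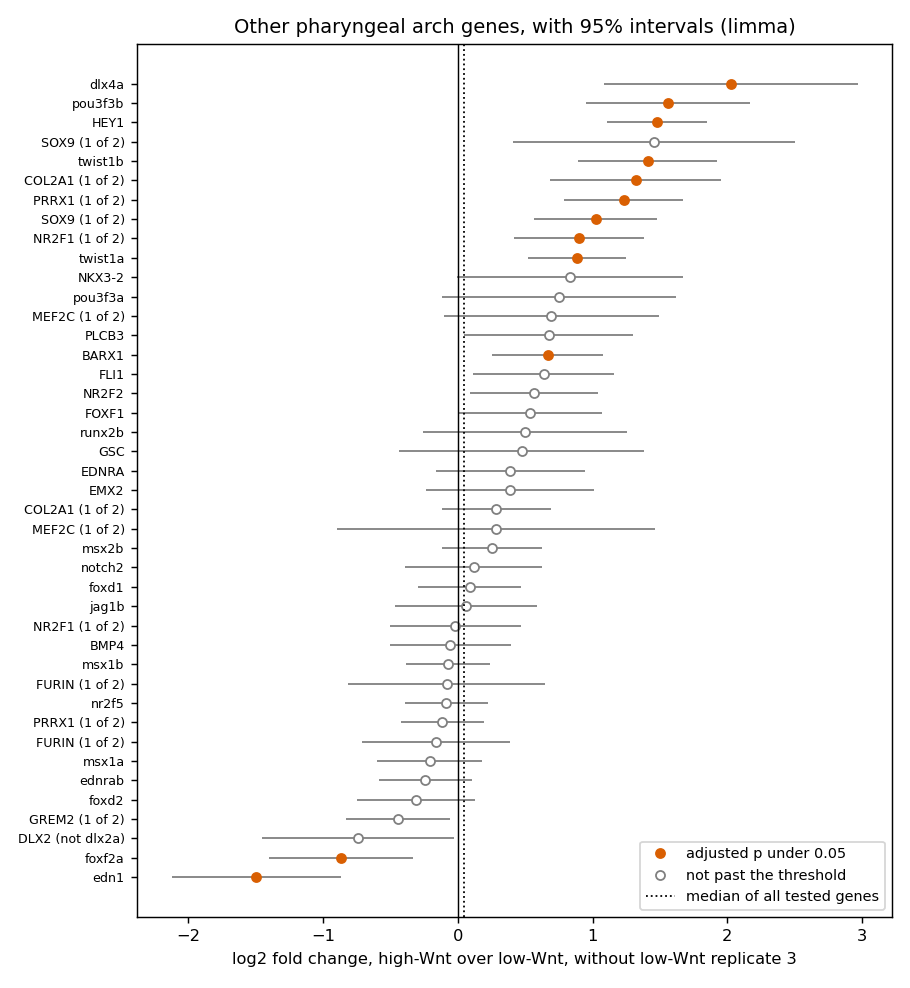
The log2 fold change, high-Wnt over low-Wnt, of the 42 tested genes of the arch list in the fit without low-Wnt replicate 3 (horizontal axis), each with its 95% interval from limma; filled points passed an adjusted p under 0.05 and the dotted line is the median of all tested genes (0.05). 10 genes rose, led by dlx4a at 2.03, and 2 fell, edn1 at -1.50 and foxf2a at -0.87.

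Markers of other tissues that use these genes were measured beside NC markers. With 6 libraries, 0 of the 26 identifiers of these lists that were tested were called by limma. At an unadjusted p under 0.05 there were 8 of 26, against 14.2% of all tested genes. Without low-Wnt replicate 3, 8 of 26 rose and 2 fell, against 7.17% and 5.57% of all tested genes, so every call in these lists rests on leaving out that library. The list for epidermis, placode and fin fold, where dlx3b and dlx4b are also expressed, has 7 identifiers, 7 of 7 past the filter on low values. It summed to 1127 to 1400.0 TPM in high-Wnt libraries and to 528, 672 and 222 TPM in low-Wnt replicates 1, 2 and 3, and the populations did not overlap. The sums of the NC, arch and neuron lists did not overlap either. Those of the arch list were close, at least 2072 TPM in high-Wnt and at most 2004 TPM in low-Wnt libraries. Among single tested genes 22.4% were apart with high-Wnt above, and no such share was computed for sums of genes. In every library except low-Wnt replicate 3, most of the epidermis, placode and fin fold sum was krt4, an epidermal keratin. It averaged 955 TPM in high-Wnt libraries and, without replicate 3, 339 TPM in low-Wnt libraries. In low-Wnt replicate 3 krt4 had 52.6 TPM and epcam, of the same list, 141 TPM. The log2 fold change of epcam was 0.12 (limma adjusted p = 0.804) with 6 libraries and 0.08 (limma adjusted p = 0.709) without that library. Without low-Wnt replicate 3, 3 of the 7 rose (krt4, krt5 and cdh1) and tp63, a basal epidermal regulator, fell by 0.71 on the log2 scale. With 6 libraries the limma adjusted p was 0.159 for krt4, 0.071 for krt5, 0.335 for cdh1 and 0.958 for tp63. The list for forebrain and neurons, where dlx1a, dlx2a, dlx5a and dlx6a are also expressed, had 6 identifiers with sums of 55.5 to 63.8 TPM in high-Wnt libraries and 26.1, 41.9 and 16.3 TPM in low-Wnt replicates 1, 2 and 3. In it elavl3 and neurog1 rose without low-Wnt replicate 3 (limma adjusted p with 6 libraries 0.177 and 0.403), and both genes listed as GAD1, a marker of the inhibitory neurons that Dlx factors specify, averaged under 1 TPM.

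For heart and lateral plate, where hand2 is also expressed, 6 identifiers summed to 50.9 to 68.7 TPM in high-Wnt libraries and to 131, 67.5 and 94.1 TPM in low-Wnt replicates 1, 2 and 3. MYL7, a myosin of heart muscle, made up most of it, gata4 was listed at 0 in 4 of 6 libraries, and GATA5 fell without low-Wnt replicate 3 (limma adjusted p with 6 libraries 0.576). The 3 pharyngeal endoderm markers summed to 27.2 to 32.4 TPM in high-Wnt libraries and to 42.7, 26.9 and 24.4 TPM in low-Wnt replicates 1, 2 and 3, with SOX17 listed at 0 in all. The 4 blood and vessel markers summed to 88.6 to 184 TPM in high-Wnt libraries and to 110, 115 and 206 TPM in low-Wnt replicates 1, 2 and 3, nearly all of it hbae1.1, an embryonic hemoglobin. Of the NC markers, foxd3, TFAP2A and 1 of 2 genes listed as SOX9 rose past the threshold without low-Wnt replicate 3. With 6 libraries their limma adjusted p were 0.352, 0.335 and 0.179. Both genes listed as SOX9 also stand in the arch list, so the SOX9 gene that passed is the same in both and is counted in both. SOX10 had a log2 fold change of 0.25 (limma adjusted p = 0.330) without that library and 0.83 (limma adjusted p = 0.462) with 6 libraries. The part of these other cells in the values of the dlx genes and hand2 was not tested.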

How the data were processed

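RNA-seq libraries of sorted high-Wnt and low-Wnt NC cells (24 hpf, 3 each) were analysed. The authors aligned reads to GRCz11 using STAR, estimated abundance using RSEM, and deposited the abundance of each Ensembl gene in TPM. The annotation release is not given in the sources used here. The authors tested with the edgeR GLM framework, which needs counts, so it was not repeated. TPM values keep no depth, so no counting interval could be given.

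The fit used limma 3.58.1 (R 4.3.3) on log2(TPM + 1), with population as the only term and a variance trend. A gene was tested when 3 or more libraries (2 or more with a library left out) reached 1 TPM, and an adjusted p-value (Benjamini-Hochberg over all tested genes) under 0.05 was called. The pseudocount understates changes of weakly expressed genes. Python 3.11.15 with pandas 2.3.3 made tables and plots. The procedure was checked on simulated data in which each gene had the same spread in all libraries, so without a library like low-Wnt replicate 3.

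The genes and lists were chosen with earlier results of these data known. The rule for named genes took all 7, the 2 closest profiles to dlx2a and to hand2, and list genes by their calls; other list genes were picked after their values were seen. A few markers of other tissues were left out of their lists and are not reported here. Symbols were matched for 28988 of 32057 identifiers, 7 of 7 of those described. RefSeq (GRCz12tu) gave neighbours only, since its build differs. Alternatives were a pseudocount of 0.1, no filter, a mean TPM of at least 5, other scalings, no trend, quality weights, a replicate block and each library left out.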

Additional observations from a re-analysis of the deposited data

How the results depend on the processing

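Of the 126 values of the 7 log2 fold changes under 18 alternatives, 111 kept their direction and side of the threshold, 9 passed it and 6 reversed. The reversals with 6 libraries were dlx4b (-0.46), dlx6a (-0.30) and hand2 (-0.0073) under median centring and dlx6a (-0.17) under quantile normalization, and dlx4b without low-Wnt replicate 1 (-0.03) or 2 (-0.10), its range with each library left out being -0.10 to 0.54. With each library left out, the number of these genes called was 0 to 1 and that of all genes 0 to 1912, and the log2 ratios differed by -0.32 to 0.14 (dlx1a to dlx2a, reversed to 0.14, 0.01 and 0.14 without high-Wnt replicates 2 and 3 and low-Wnt replicate 3), 0.09 to 1.18 (dlx3b to dlx4b), -0.60 to -0.30 (dlx5a to dlx6a), -1.42 to -0.47 (dlx5a to dlx2a) and -0.46 to -0.12 (hand2 to dlx2a).

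Sample quality weights called 3 of the 7 (dlx2a, dlx3b and dlx4b) and 4128 genes, 29.1% of those tested. Low-Wnt replicate 3 had a weight of 0.037 there. Leaving it out with quantile normalization called 1795 genes (12% of those tested), 2 of them among the 7 (dlx3b and dlx4b). Leaving that library out with median centring, a pseudocount of 0.1 or the genes of the 6-library fit called 2146, 1686 and 1986 genes (14.3%, 11.2% and 14%). Of the 7, only dlx3b was among them. With 6 libraries, 52 genes were called, against 17 with a pseudocount of 0.1, 4 with no filter, 13 with a mean TPM of at least 5, 160 with quantile normalization and 13 without a variance trend, none of them among the 7. The replicate block called 168 genes and 0 of the 7. Deviations of same-numbered libraries correlated at 0.03, -0.01 and 0.14, and whether the numbers pair the libraries is not stated. The cause of these changes was not tested. Of the arch list, chosen for counting under all settings after the data were seen, 0 to 21 genes were called. The 21, of 42 tested, came with sample quality weights, where 29.1% of all tested genes were called. The paper gives an approximate read depth per sample, but TPM do not record the depth of each library. How much of the spread is counting error is therefore unknown.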
